A study of Homo sapiens with 6 samples.

Results

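The TPD52 family, the tumour protein D52 family, has 4 human members: TPD52, TPD52L1, TPD52L2 and TPD52L3. They encode small proteins with a coiled-coil, through which they bind themselves and each other. TPD52 is amplified and overexpressed in many breast and prostate tumours and is known as an androgen-responsive gene in prostate cells. TPD52L1 was found by its likeness to TPD52 in breast carcinoma, and it is known to bind 14-3-3 proteins and the stress kinase ASK1 and to peak late in the cell cycle. TPD52L2 is the broadly expressed member and sits on small transport vesicles of the Golgi and endosomes, and TPD52L3 is known mainly from testis.

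The members were the genes of the count table that carry one of these 4 names, and 3 of the 4 were found among the 33451 genes listed. The family was chosen by the measured rise of TPD52L1 between control and 25(OH)D cells, which was among the strongest in these counts, so the difference of TPD52L1 is given as a description without a test. TPD52 and TPD52L2 were taken in as its relatives. All 3 passed the low-count filter, which kept 18183 genes. TPD52L3 has no row in the table. The table lists genes with at least 1 count in the 6 libraries, and whether the annotation used for counting held TPD52L3 is not known, so no value is given for it. A count of 3, taken as the smallest count to be told from 0, was worth between 0.0733 and 0.0902 CPM, the unit that sets a count against the total of its library. That total was raw for this floor and for the marker sums below, and scaled for single genes.

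Sequencing covered the mRNA of MDA-MB-453, an established breast cancer line of luminal type that carries the androgen receptor and an amplified ERBB2. The control group held 3 libraries of cells kept in the alcohol solvent, and the 25(OH)D group held 3 libraries of cells kept in 100 nM 25(OH)D, the vitamin D form that circulates in blood, both for 5 days in DMEM with serum. Each library held between 33268860 and 40928176 counted reads, and the TMM factors, which scale the libraries to each other, were between 0.980 and 1.018. The groups come from 1 cell line. The study's methods call the replicates biological without saying how they were separated, so the p-values measure the spread between these libraries. The line was checked against its markers. All 10 luminal markers were tested, and their summed level was between 4537 and 4686 CPM in control and between 4558 and 4618 CPM in 25(OH)D. The 6 basal markers summed to between 3.03 and 3.52 CPM over all libraries and the 4 endothelial markers to at most 0.493 CPM. The 7 fibroblast markers summed to between 36.9 and 39.6 CPM in control and between 31.4 and 34.1 CPM in 25(OH)D, nearly all of it COL1A1. The 6 leukocyte markers summed to between 4.20 and 5.89 CPM in control and between 13.3 and 19.0 CPM in 25(OH)D. That sum was nearly all CD68, a lysosomal protein, at 4.93 CPM ± 0.821 and 15.9 CPM ± 3.18 (SD, n = 3), while PTPRC, which defines leukocytes, had at most 6 counts in any library.

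The coding sequences of the members are related but differ along their whole length. Their principal transcripts in GENCODE 29 hold 224 codons in TPD52, 204 in TPD52L1, 209 in TPD52L2 and 140 in TPD52L3 before the stop codon. Aligned in pairs, between 61.4% (TPD52L1 and TPD52L3) and 72.6% (TPD52L2 and TPD52L3) of the aligned coding bases were identical, and TPD52L1 shared 66.8% with TPD52 and 65.2% with TPD52L2. The longest identical run in any pair was 13 bases, and no stretch of 100 transcript bases was common to any pair of members. The stretch of 60 coding bases below is the one with most identical bases within 1 exon of both genes, and it shows how far the likeness of the changed and the less changed member goes. It lies in TPD52L1 (chr6:125248322-125248381, GRCh38, plus strand, coding bases 325 to 384 of TPD52L1-213) and TPD52L2 (chr20:63882759-63882818, GRCh38, plus strand, coding bases 355 to 414 of TPD52L2-204). Capitals mark the 41 bases that are the same in both, and lower case marks the 19 that differ.
TPD52L1: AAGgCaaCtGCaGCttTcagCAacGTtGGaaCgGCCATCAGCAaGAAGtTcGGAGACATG
TPD52L2: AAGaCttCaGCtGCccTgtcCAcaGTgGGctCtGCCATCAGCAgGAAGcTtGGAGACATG

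Reads could instead be shared with genes that overlap the members on the genome. TPD52L1 shares 191 of its 7595 exon bases with HDDC2, a gene on the opposite strand that encodes an HD domain protein. The shared interval runs from 125219962 to 125220152 on chromosome 6 and is 3.24% of the 5888 exon bases of HDDC2. It covers 75 coding bases at the start of exon 2 of TPD52L1-213 (chr6:125220078-125220152, GRCh38, plus strand, coding bases 20 to 94), and 13 of the 17 annotated TPD52L1 transcripts touch it. These bases are shown because a read on them was open to both genes.
TPD52L1 exon 2, bases shared with HDDC2: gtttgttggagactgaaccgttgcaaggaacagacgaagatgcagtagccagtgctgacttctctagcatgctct
TPD52 shares 877 bases with RP11-26J3.4, a gene on the same strand whose span reaches across MRPS28, and these are 57.4% of the 1527 exon bases of RP11-26J3.4. TPD52L2 shares no exon base with another gene.

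Nested genes show how the table treats shared bases. Among genes whose exons lie wholly inside those of a gene on the opposite strand, 236 could be examined, and 195 of them (82.6%) held at least 0.1 of their host's reads per base, with a median of 0.614. For 88 genes nested on the same strand the share was 78.4% and the median 0.578. Reads on shared bases of either strand are therefore taken as open to both genes, although the library kit keeps the strand. The table lists only genes with at least 1 count, so nested genes without reads could not be examined. Both shares may therefore be too high.

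TPD52L1 was the member whose level differed most between the groups. It lies on chromosome 6 (125119049 to 125264407, GRCh38, plus strand) with 7595 exon bases in 12 merged exons. Control cells gave 6028, 5419 and 5762 counts, and 25(OH)D cells gave 31663, 34208 and 30970. Scaled by the library sizes and TMM factors, this was 144.8, 143.3 and 156.5 CPM in control and 900.7, 889.7 and 950.4 CPM in 25(OH)D. The lowest 25(OH)D library was far above the highest control library, and the spread within each group was narrow, with a coefficient of variation of 4.89% in control and 3.54% in 25(OH)D. The means were 148 CPM ± 7.24 and 914 CPM ± 32.4 (SD, n = 3), which is a log2 fold change of 2.62 (SE 0.0445, 95% interval 2.54 to 2.71) or 6.17-fold. Among the 13016 genes with a mean of at least 100 counts in either group, it was number 90 by log2 fold change. By the gain in CPM, 765 CPM, it was number 14 of all genes tested.

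TPD52, the founding member, was the most abundant of the 3 in control cells and was slightly higher in 25(OH)D. It lies on chromosome 8 (80034745 to 80231232, minus strand) with 8197 exon bases. Its counts were 21744, 20757 and 19967 in control and 20322, 21697 and 19798 in 25(OH)D, and after scaling 522.2, 548.8 and 542.3 CPM against 578.1, 564.3 and 607.6 CPM. The raw counts overlapped between the groups and the scaled values did not, the nearest libraries being 548.8 CPM in control and 564.3 CPM in 25(OH)D. The means were 538 CPM ± 13.9 and 583 CPM ± 22.1 (SD, n = 3), a log2 fold change of 0.12 (SE 0.0380, 95% interval 0.043 to 0.19) with an adjusted p of 0.0281 by the quasi-likelihood test of edgeR. Of all genes tested, 33.8% were called at an adjusted p under 0.05, 17.3% were called higher, and in 45.7% the groups did not overlap, so neither property set TPD52 apart. The call rested on the scaling and on single libraries. The log2 fold change was 0.076 with upper-quartile factors (adjusted p = 0.167, edgeR) and 0.073 with library sizes alone (adjusted p = 0.138, edgeR), and the call was also lost without control replicate 1 (0.103, adjusted p = 0.0883, edgeR) and without 25(OH)D replicate 3 (0.098, adjusted p = 0.0726, edgeR).

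TPD52L2, the vesicle-associated member, did not pass the test. It lies on chromosome 20 (63865228 to 63891545, plus strand) with 4694 exon bases. Its counts were 3371, 3012 and 3186 in control and 2726, 3084 and 2385 in 25(OH)D, or 80.96, 79.63 and 86.53 CPM against 77.55, 80.21 and 73.19 CPM. The groups overlapped, since 25(OH)D replicate 2 was above control replicate 2. The means were 82.4 CPM ± 3.66 and 77.0 CPM ± 3.54 (SD, n = 3), a log2 fold change of -0.097 (SE 0.0522, 95% interval -0.20 to 0.0052, adjusted p = 0.177, edgeR). The interval of the difference reaches from a small fall to just above 0.

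**Figure D1:**
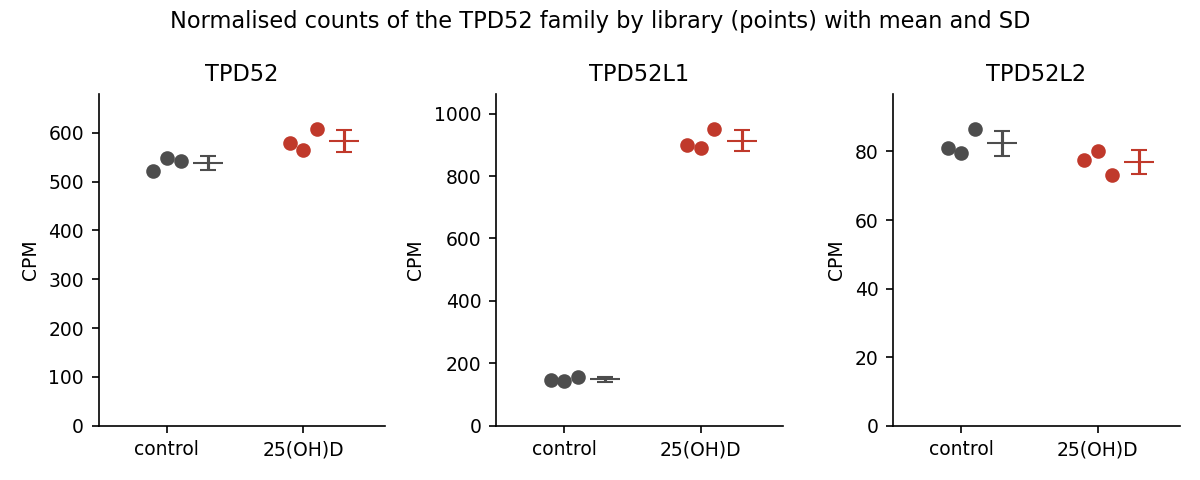
Normalised counts (CPM, vertical axis from 0, with a scale of its own for each gene) of TPD52, TPD52L1 and TPD52L2 in the 3 control libraries (grey) and the 3 25(OH)D libraries (red); points are libraries and the bars beside them the mean ± SD. TPD52L1 lies between 143.3 and 156.5 CPM in control and between 889.7 and 950.4 CPM in 25(OH)D, TPD52 is separate by a small margin, and the groups of TPD52L2 overlap.

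Set against all genes, the differences of the members were of very unequal size. The median log2 fold change over all genes tested was -0.011, with quartiles at -0.23 and 0.22. The log2 fold changes of TPD52 and TPD52L2 lay between these quartiles, and that of TPD52L1 was far above the upper one. HDDC2, the gene overlapping TPD52L1, was also above it.

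**Figure D2:**
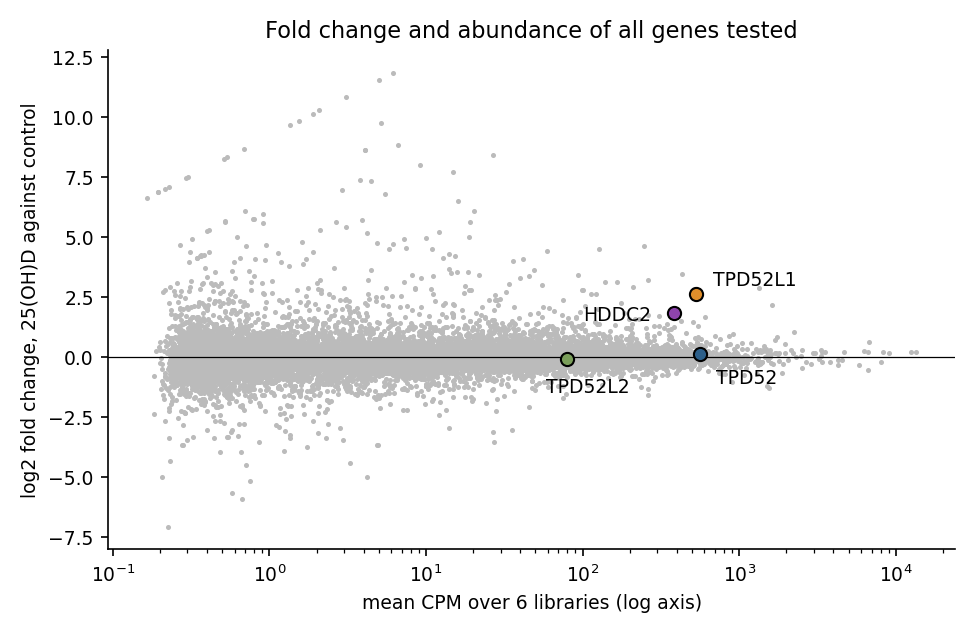
Log2 fold change of 25(OH)D against control (vertical axis) by mean CPM over the 6 libraries (horizontal log axis) for all genes tested (grey), with the 3 family members and HDDC2 marked. TPD52L1 (log2 fold change 2.62) and HDDC2 (1.85) stand above the band of genes of similar abundance, and TPD52 (0.12) and TPD52L2 (-0.097) lie in it.

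The order of the members changed between the groups when levels were compared per gene length, with all exon bases of each gene as its length. In RPKM, which divides the reads by gene length and library total, TPD52 was at 64.8, 68.1 and 66.8 in control and at 69.2, 68.3 and 72.6 in 25(OH)D. TPD52L1 was at 19.4, 19.2 and 20.8 RPKM in control and at 116.4, 116.2 and 122.6 RPKM in 25(OH)D. TPD52L2 was at 17.5, 17.3 and 18.6 RPKM in control and at 16.2, 16.9 and 15.3 RPKM in 25(OH)D. In control cells TPD52 led, and TPD52L1 and TPD52L2 were close, with a ratio of TPD52L1 to TPD52L2 of 1.11 ± 0.00629 (SD, n = 3). Over the control libraries the lowest TPD52L1 value, 19.2 RPKM, was just above the highest TPD52L2 value, 18.6 RPKM, while the lowest TPD52 value, 64.8 RPKM, was far above both. In 25(OH)D cells TPD52L1 led in every library, at 1.69 ± 0.0102 times the RPKM of TPD52 (0.297 ± 0.0149 in control) and 7.35 ± 0.604 times that of TPD52L2 (SD, n = 3).

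The summed RPKM of the 3 members was 104 ± 2.23 in control and 204.5 ± 5.12 in 25(OH)D (SD, n = 3). TPD52 made up 63.9% ± 1.14 of that sum in control and 34.2% ± 0.304 in 25(OH)D, TPD52L1 19.0% ± 0.619 and 57.9% ± 0.327, and TPD52L2 17.1% ± 0.526 and 7.90% ± 0.590 (SD, n = 3). These shares follow from the rise that chose TPD52L1 and are a description. The lengths in the table join the exons of all transcripts. With the length of the principal transcript in their place, chosen after seeing the data, the order in each group was the same. TPD52L1 then went from 20.4% of the sum to 59.8%, TPD52 from 68.0% to 35.1% and TPD52L2 from 11.6% to 5.16%. Neither length tells where the reads of TPD52 lay, so the shares and the order hold for these lengths alone. RP11-26J3.4, which shares 877 exon bases with TPD52, had between 93.3% and 94.6% as many counts in each library. Most reads of TPD52 may thus lie on these bases, and the order with so short a length was not tested. Over its own 1527 exon bases, RP11-26J3.4 was between 343.4 and 368.5 RPKM in 25(OH)D. TPD52L1 was between 116.2 and 122.6 RPKM there. Among all 33451 genes ranked by RPKM within a library, TPD52L1 was between number 2233 and 2426 in control and between 345 and 370 in 25(OH)D. TPD52 was between number 619 and 713 in all 6 libraries, and TPD52L2 between 2463 and 2963.

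**Figure D3:**
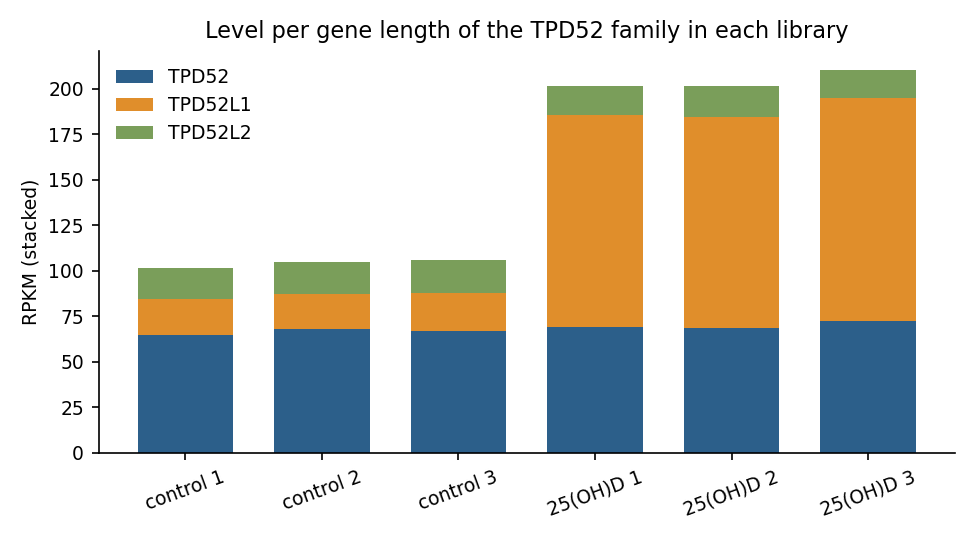
Level per gene length (RPKM, stacked, vertical axis from 0) of TPD52, TPD52L1 and TPD52L2 in each of the 6 libraries, with all exon bases of each gene as its length. The TPD52 part is nearly the same height in all bars, and the TPD52L1 part grows from 19.8 RPKM ± 0.873 in control to 118 RPKM ± 3.64 in 25(OH)D (SD, n = 3).

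The balance of the relatives that had not been picked for their own difference was compared by the ratio of TPD52 to TPD52L2 in RPKM. It was 3.69, 3.95 and 3.59 in control and 4.27, 4.03 and 4.75 in 25(OH)D. The groups did not overlap, but the lowest 25(OH)D value was near the highest of control. The means were 3.74 ± 0.184 and 4.35 ± 0.369 (SD, n = 3), a difference of 0.21 on the log2 scale, with p = 0.1 in a two-sided exact permutation test, the smallest p that 3 libraries against 3 allow.

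Genes that share exon bases with a member were found for TPD52L1 and TPD52. HDDC2 had 6812, 6071 and 6583 counts in control and 20721, 22281 and 20927 in 25(OH)D, which was 168 CPM ± 9.79 and 604 CPM ± 33.7 (SD, n = 3), with a log2 fold change of 1.85 (SE 0.0506). No test is given for it, since its counts may hold reads of the gene that was picked for its rise. All 3 libraries of 25(OH)D were above all of control, as for TPD52L1. Its gain of 436 CPM was 57.0% of the gain of TPD52L1. The table holds 1 count per gene and no positions of reads, so reads of TPD52L1 counted for HDDC2, reads of HDDC2 counted for TPD52L1 and a rise of both genes cannot be told apart. RP11-26J3.4 had between 93.3% and 94.6% as many counts as TPD52 in each library, with a log2 fold change of 0.12 (SE 0.0397, adjusted p = 0.0286, edgeR), a call lost in 6 of 14 alternatives with an adjusted p of up to 0.196. Its counts and those of TPD52 cannot be told apart either.

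Genes around the members were described within 500 kb on either side. Around TPD52L1 and apart from HDDC2, which is left out of these counts, the table lists 5 other genes. Of these, 3 were tested, 1 was called higher and 0 lower, beside 17.3% and 16.5% of all genes tested. The gene called was RNF217, an E3 ubiquitin ligase 26.4 kb away, at 5.73 CPM ± 0.609 in control and 7.18 CPM ± 0.229 in 25(OH)D (SD, n = 3), with a log2 fold change of 0.33 (SE 0.120, adjusted p = 0.0477, edgeR). That call was lost in 12 of 14 alternatives, in which the adjusted p reached 0.212. No tested gene lay beyond the other end of TPD52L1 within the window.

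Around TPD52 the table lists 16 other genes, of which 7 were tested, with a median log2 fold change of -0.47. Of these, 1 was called higher and 2 were called lower, counts too small to set beside the 17.3% and 16.5% of all genes. The 1 called higher was RP11-26J3.4, whose counts cannot be told apart from those of TPD52, so its call is not a separate one. The nearest tested gene on one side was MRPS28, a mitochondrial ribosome protein 4.46 kb away, with a log2 fold change of -0.018 (adjusted p = 0.906, edgeR). On the other side the nearest tested gene was the zinc finger gene ZBTB10, 254 kb away, at 1.84 CPM ± 0.292 and 1.09 CPM ± 0.186 (SD, n = 3), with a log2 fold change of -0.74 (SE 0.246, adjusted p = 0.0312, edgeR), a call lost in 7 of 14 alternatives. ZNF704, another zinc finger gene, 397 kb away, fell by more than any other tested gene of this window, from 71.9 CPM ± 1.28 to 33.5 CPM ± 0.673 (SD, n = 3) and a log2 fold change of -1.10 (SE 0.0513, adjusted p = 6.39e-10, edgeR). Of all genes tested, 2.3% were called with a log2 fold change under -1 and 3.69% with one over 1. RP11-92K15.1, which lies inside the span of TPD52 on the opposite strand, had a log2 fold change of -0.47 (adjusted p = 0.105, edgeR).

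Around TPD52L2, in a gene-rich end of chromosome 20, the table lists 52 other genes, of which 33 were tested, 3 were called higher and 6 lower, with a median log2 fold change of 0.047. Neither share was far above those of all genes (17.3% higher and 16.5% lower). The nearest tested neighbours on either side were RP4-591C20.9 at 0.935 kb, with a log2 fold change of 0.20 (adjusted p = 0.0879, edgeR), and DNAJC5, a chaperone of synaptic vesicles at 3.64 kb, with 0.12 (adjusted p = 0.170, edgeR). Neither passed the test, like TPD52L2 itself.

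**Figure D4:**
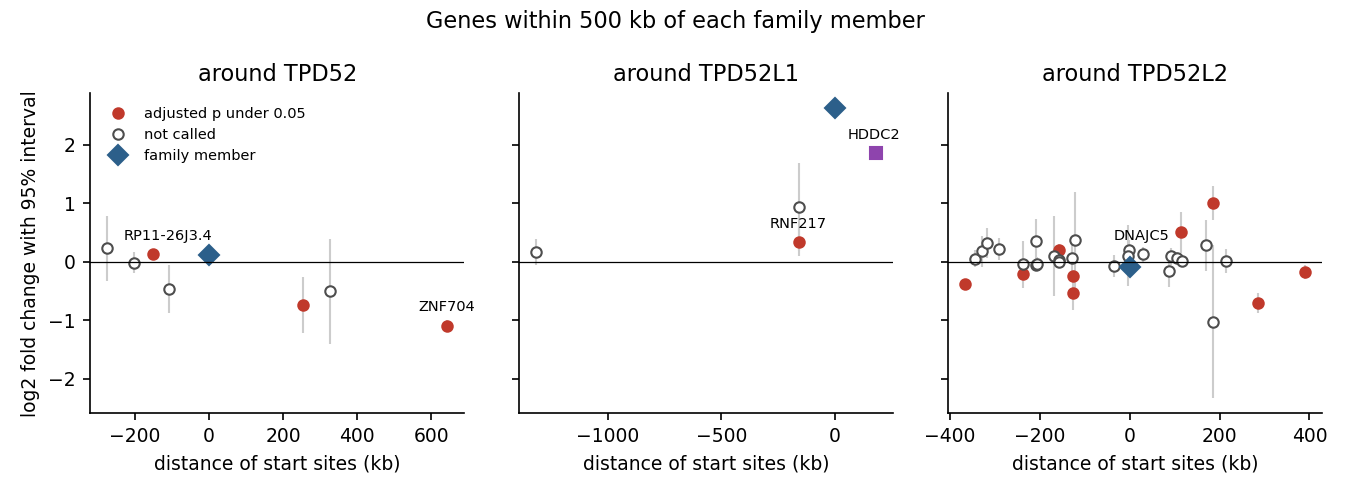
Log2 fold change (vertical axis, bars 95% interval) of the tested genes within 500 kb of TPD52, TPD52L1 and TPD52L2, by the distance in kb of their start site from that of the member (horizontal axis, genome direction, a scale of its own in each panel). Red points passed an adjusted p under 0.05, open points did not, the diamond is the member, and the purple square is HDDC2, which is given no test. HDDC2 (1.85) is the neighbour nearest in size of change to TPD52L1 (2.62), and around TPD52 the gene with a log2 fold change under -1 is ZNF704 (-1.10).

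The promoters were searched for short motifs in the RefSeq set of 35116 windows of 300 bases around gene starts (GRCh38.p14), which matched TPD52L1, TPD52L2 and TPD52L3. No window was found for TPD52, which was not searched. On either strand, the vitamin D response element was sought as a direct repeat of 2 half-sites with 3 bases between them. Each half-site had to match any of 4 fixed hexamers exactly, so looser forms of the element were not searched. Such a repeat was in none of the 3 windows and in 0.0740% of all. TATAAA was in none of the 3 and in 11.5% of all. CACGTG was found 1 time, in TPD52L2 at 63865209 to 63865214 on chromosome 20, and was in 7.26% of all windows. A missing match says only that these letters are not in this window.

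The genes whose profiles over the 6 libraries were most like those of the members were found by the Euclidean distance between log2 CPM values centred on each gene's own mean. Nearest to TPD52L1 were ARMC7, an armadillo repeat protein (distance 0.152), MB, the oxygen-binding myoglobin (0.189), and TSKU, a secreted leucine-rich proteoglycan (0.190). ARMC7 went from 34.5 CPM ± 1.92 to 209.6 CPM ± 1.43, MB from 8.50 CPM ± 0.434 to 55.9 CPM ± 3.34 and TSKU from 31.7 CPM ± 1.61 to 193 CPM ± 11.3 (SD, n = 3), with log2 fold changes of 2.60, 2.72 and 2.61. All 3 were below TPD52L1 in CPM in both groups. Nearest to TPD52 were RP11-26J3.4 (0.0158), MIEF1, a mitochondrial fission factor (0.0391), and FAM91A1 (0.0417). The counts of RP11-26J3.4 cannot be told apart from those of TPD52, so that likeness is not a separate result. Nearest to TPD52L2 were ZMYM6 (0.0391), ASNA1, an ATPase that delivers tail-anchored proteins (0.0452), and SUPT7L, a subunit of the SAGA complex (0.0514). The small distances around TPD52 and TPD52L2 are between profiles that hardly varied.

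Genes that the family is linked to were described by lists, each with its counts beside those of all genes tested, of which 17.3% were called higher and 16.5% lower. MAL2, PLIN2 and MAP3K5 stand on more than 1 list. Of 9 reported binding partners, 8 were tested, 2 were higher and 3 lower, with a median log2 fold change of -0.17. PRKAA1, the catalytic subunit of AMPK, rose from 35.3 CPM ± 0.989 to 60.4 CPM ± 2.79 (SD, n = 3; log2 fold change 0.78, SE 0.0564, adjusted p = 8.70e-08, edgeR), with every 25(OH)D library above every control library. MAP3K5, which encodes ASK1, fell from 30.0 CPM ± 0.725 to 19.5 CPM ± 1.89 (SD, n = 3; log2 fold change -0.62, SE 0.0771, adjusted p = 2.08e-05, edgeR). MAL2, a membrane protein of apical transport and a known TPD52 partner, fell from 79.0 CPM ± 3.58 to 64.7 CPM ± 3.51 (SD, n = 3; log2 fold change -0.29, SE 0.0551, adjusted p = 9.37e-04, edgeR). ANXA6, a calcium-dependent membrane binder, was higher (log2 fold change 0.20, adjusted p = 0.00226, edgeR), and STK11, the kinase LKB1, was lower (-0.19, adjusted p = 0.0204, edgeR), a call lost in 4 of 14 alternatives, each with 1 library left out. PLIN2, a lipid droplet protein, had at most 8 counts in any library and was not tested.

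Of the 7 genes of 14-3-3 proteins, adaptors that bind phosphorylated partners, all were tested and 2 were higher and 0 lower, with a median log2 fold change of 0.093, although 2 were also called lower (YWHAE and YWHAZ) with upper-quartile factors or library sizes alone. SFN rose from 399 CPM ± 20.5 to 466 CPM ± 5.10 (SD, n = 3; log2 fold change 0.22, SE 0.0405, adjusted p = 6.50e-04, edgeR) and YWHAB had a log2 fold change of 0.22 (adjusted p = 0.00109, edgeR). YWHAZ had a log2 fold change of -0.079 (adjusted p = 0.0761, edgeR).

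The vesicle genes were mostly on the higher side where they were called. Of 23 genes of the early endosome and of exocytosis, 21 were tested, 9 were higher (42.9%) and 3 lower (14.3%), with a median log2 fold change of 0.13. VAMP8, a SNARE of endosomal and secretory fusion, rose from 130 CPM ± 10.9 to 174 CPM ± 9.16 (SD, n = 3; log2 fold change 0.42, SE 0.0580, adjusted p = 5.73e-05, edgeR). EEA1, the early endosome tether, had a log2 fold change of 0.28 (adjusted p = 8.54e-05, edgeR) and RAB5B, a small GTPase of the same compartment, 0.33 (adjusted p = 1.08e-04, edgeR). RAB11A, of recycling endosomes, was called at 0.13 (adjusted p = 0.0480, edgeR), and that call was lost in 9 of 14 alternatives. MAL2 was the called member with the smallest p among those that fell, SYT7, a calcium sensor of exocytosis, was lower at -0.93 (adjusted p = 0.00208, edgeR) and RAB5C at -0.17 (adjusted p = 0.0185, edgeR), the latter lost in 3 of 14 alternatives.

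Of 11 Golgi tethers and genes of small vesicles, 11 were tested, 3 were higher and 0 lower, with a median log2 fold change of 0.047, and the counts were 3 and 0 in each of the 14 alternatives too. All 3 were golgins, as were most genes on the list, and the golgins GOLGA1 and GOLGA2 were not called. GOLGA4 rose from 1295 CPM ± 51.9 to 1533 CPM ± 43.9 (SD, n = 3; log2 fold change 0.24, SE 0.0370, adjusted p = 1.35e-04, edgeR), GOLGA5 had a log2 fold change of 0.24 (adjusted p = 2.28e-04, edgeR) and GOLGB1 of 0.20 (adjusted p = 3.43e-04, edgeR). GOLGA1 had a log2 fold change of -0.066 (adjusted p = 0.315, edgeR).

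In the ASK1 cascade, through which the known partner of TPD52L1 signals to the p38 and JNK kinases, 13 of 15 genes were tested, 2 were higher and 2 lower, with a median log2 fold change of 0.039 that was between -0.0105 and -0.00152 in 4 of the alternatives. Besides ASK1 itself, which fell as given above, the kinase MAP2K7 was lower (-0.20, adjusted p = 0.0248, edgeR), a call lost in 4 of 14 alternatives. MAPK9, which encodes JNK2, rose from 59.96 CPM ± 0.599 to 71.3 CPM ± 1.54 (SD, n = 3; log2 fold change 0.25, SE 0.0473, adjusted p = 8.38e-04, edgeR), and MAPK13, a p38 kinase, had a log2 fold change of 0.23 (adjusted p = 0.00322, edgeR).

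The genes of G2 and mitosis, the phase at which TPD52L1 is known to peak, went the other way from TPD52L1. All 18 were tested, of which 16 fell and 0 rose, and the median was -0.60 on the log2 scale, and the counts were the same in each of the 14 alternatives. CENPF, a kinetochore protein, fell from 1609 CPM ± 55.7 to 986 CPM ± 36.0 (SD, n = 3; log2 fold change -0.71, SE 0.0375, adjusted p = 2.88e-09, edgeR). CCNB2, a mitotic cyclin, had a log2 fold change of -0.87 (adjusted p = 1.03e-08, edgeR). The genes not called were CDC20 (0.023, adjusted p = 0.826, edgeR) and WEE1, which holds back mitotic entry (0.087, adjusted p = 0.525, edgeR). In bulk samples, fewer cells in a phase and less RNA per cell cannot be told apart.

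**Figure D5:**
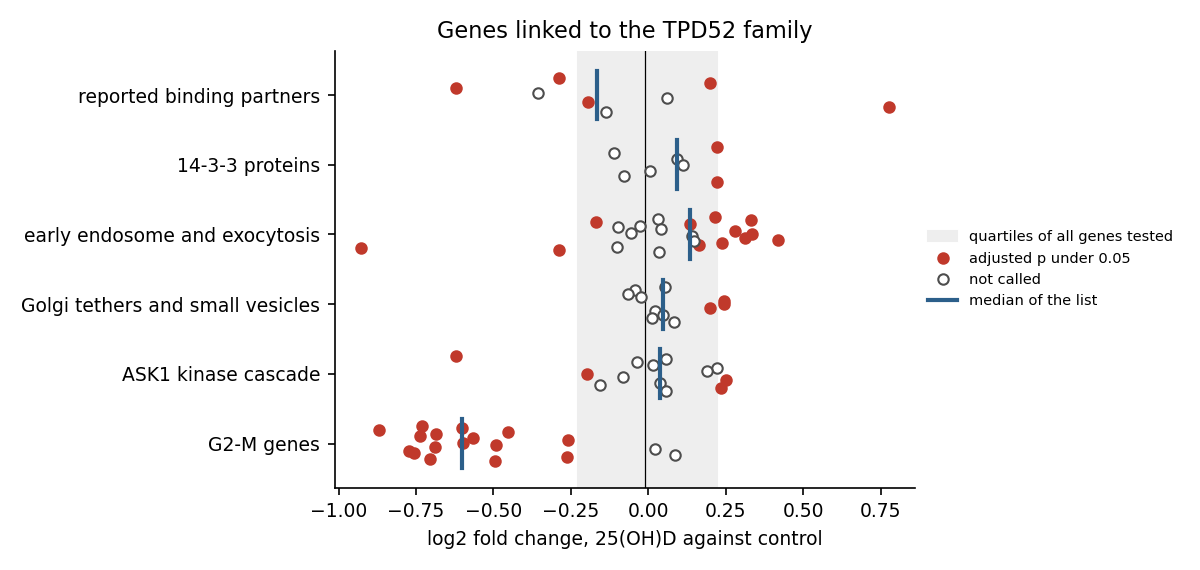
Log2 fold change of 25(OH)D against control (horizontal axis) of the tested genes of 6 lists linked to the family (rows); red points passed an adjusted p under 0.05, open points did not, blue bars are list medians and the grey band spans the quartiles of all genes tested (-0.23 to 0.22). The G2-M genes lie at the lower side with a median of -0.60, and the medians of the other lists lie within the band.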

How the data were processed

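The authors deposited counts, the reads counted on each gene with no scaling, from featureCounts (Subread 1.5.1, after Trimmomatic 0.36, edgeR 3.12.1 also named, GRCh38), per the submitters' processing notes. The aligner and the annotation release are not given in the sources used here. The authors also deposited RPKM, which equalled count over gene length and library total (largest relative difference 2.23e-13). Of counts between 1 and 20, 67.2% were even; whether a read pair counted as 1 or 2 is not stated. Counts were tested in R 4.3.3 with edgeR 4.0.16 (TMM, low-count filter with a minimum of 10, quasi-likelihood test without covariates, Benjamini-Hochberg over 18183 genes), and log2 fold changes have a 95% interval from their SE. No pair of replicates was a duplicate (chi-square per gene 3.85 to 11.2). Alternatives were other scaling factors, no filter, DESeq2 1.42.0, limma 3.58.1 on log2 RPKM with 1 or 0.1 added, the replicate number as a block and each library left out. Coordinates are those of the table; transcripts came from GENCODE 29 and promoters from RefSeq.

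The members and lists were chosen with earlier results of these data known. Genes were named by a rule: the members, in each list the gene with the smallest p in each direction, for each member the tested neighbour on either side, any gene sharing exon bases, any within 500 kb past an adjusted p of 0.05 and a log2 fold change of 1, and the 3 most similar profiles. Other genes named in lists or windows were chosen after their values were seen. Depth of 33268860 to 40928176 counts limits low counts, and intervals and floors cover counting error or the spread between these libraries alone.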

Additional observations from a re-analysis of the deposited data

How the results depend on the processing

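The log2 fold change of TPD52 kept its direction in all 14 alternatives and lost its call in 6. It was 0.076 with upper-quartile factors (adjusted p = 0.167, edgeR), 0.073 with library sizes alone (adjusted p = 0.138, edgeR), 0.072 by limma on log2(RPKM + 1) (adjusted p = 0.176) and 0.073 by limma on log2(RPKM + 0.1) (adjusted p = 0.180), and between 0.098 and 0.148 with 1 library left out (adjusted p 0.0222 to 0.0883, edgeR). The scalings moved the median of all genes by at most 0.044 (log2, downwards with library sizes alone), and the cause of the lost calls was not tested. TPD52L1 had a log2 fold change of 2.52 by limma on log2(RPKM + 1), where the constant shrinks changes, and between 2.61 and 2.67 with 1 library left out. TPD52L2 stayed below 0 and uncalled, with an adjusted p of 0.0528 to 0.311 over the alternatives that keep all libraries and values of -0.12 to -0.051 with 1 library left out. The log2 difference in the ratio of TPD52 to TPD52L2 was 0.15 to 0.27 with 1 library left out (exact p = 0.2, the smallest then possible), and the principal transcript length, chosen after seeing the data, does not change it. Genes called in the whole table numbered 2391 to 3298 higher and 2575 to 3667 lower, and 2742 to 3031 higher and 2349 to 2666 lower with 1 library left out. The replicate numbers did not pair the samples (correlations of same-numbered deviations -0.0721, -0.012 and -0.046). With the replicate block, TPD52 was at 0.12 (adjusted p = 0.0259, edgeR), TPD52L1 at 2.62 and TPD52L2 at -0.097 (adjusted p = 0.215, edgeR), and 3057 genes were called higher and 2896 lower.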
